A study of Mus musculus with 27 samples.

Results

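The genes described here are the interleukin-1 (IL-1) family cytokines and the molecules that oppose them: the ligands Il1a, Il1b, Il18 and Il33, the antagonist Il1rn, the decoy receptor Il1r2, the binding protein Il18bp and the receptor Il1r1. They were chosen by name, and every probe set (a set of short probes that reads 1 transcript) annotated to them was taken. Of 9 listed genes 8 had a named probe set, with 11 probe sets in all, among 18193 genes on the array. The remaining listed gene, Il1rl1, encodes the IL-33 receptor and was not analysed here. RNA from full-thickness colon was read on 27 arrays, 3 in each of 9 groups. The groups are 3 kinds of mice, each sampled when 7, 9 and 12 weeks old: IL10-/- mice in conventional housing (called CC), IL10-/- mice under specific pathogen free conditions (SPF), and wild-type mice in conventional housing (WT). All knockouts lack the cytokine IL-10, which restrains inflammation in the gut, and colitis can arise in mice without it where gut microbes live. No SPF wild types are among these samples, so SPF knockouts differ from WT in genotype and housing together. The sources used here do not give the knockout allele, the strain or whether tissue from several animals was pooled. The submitters picked the 3 replicates of each group by colon length and colonic damage, so the groups are not random draws. P-values set a difference between groups against the spread between these arrays, which need not be the spread between mice at large.

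IL-1α and IL-1β signal through the same receptor, IL-1R1, and through Myd88 and NF-κB switch on chemokines, matrix enzymes and acute phase proteins. The family is held back at several steps: Il1rn encodes an antagonist that occupies IL-1R1 without signalling, IL-1R2 binds IL-1 but lacks a signalling domain, and IL-18BP binds free IL-18. IL-1β and IL-18 are made as precursors that caspase-1 cuts, so an mRNA level does not give the level of active cytokine. In the colon IL-18 is made largely by the epithelium and IL-1β largely by myeloid cells.

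Expression values are log2 and lay between 2.104 and 14.25 over the whole table, with array medians between 4.92 and 4.99. Epcam, which marks epithelium, lay between 12.40 and 12.80, and Myh11, which marks smooth muscle, between 9.76 and 12.21, as the labelled full-thickness colon would hold. The single Il10 probe set read 4.66 to 7.09 in the 18 knockout arrays and 3.51 to 3.83 in the 9 WT arrays; since the deleted part of the gene is not given, this does not check the genotype labels. In pancreatic acinar markers the WT array 7 weeks replicate 1 and the SPF array 12 weeks replicate 3 stood apart (mean log2 levels 7.03 and 5.75, other arrays at most 4.20). On the WT array 12 weeks replicate 2 the actin control probes of the 3′ end exceeded those of the 5′ end by 0.95, against 0.37 to 0.72 on the other 26 arrays. The same difference for the Gapdh control probes was 0.0015 on that array, within the range of the others (-0.14 to 0.11). Colon is a mixture of cells, so fewer cells of a type and less RNA per cell cannot be told apart.

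Promoter sequences of the genes on which the results turn are given first, since several of these genes moved together while Il18 moved the other way. Each is a RefSeq window of 300 bases on build GRCm38.p6, from 250 bases before a transcription start, written 5′ to 3′ on the gene's strand. The letters of 7 motifs were searched on both strands, and matches are in capitals.
Il1b, chr2:129371090-129371389, minus strand: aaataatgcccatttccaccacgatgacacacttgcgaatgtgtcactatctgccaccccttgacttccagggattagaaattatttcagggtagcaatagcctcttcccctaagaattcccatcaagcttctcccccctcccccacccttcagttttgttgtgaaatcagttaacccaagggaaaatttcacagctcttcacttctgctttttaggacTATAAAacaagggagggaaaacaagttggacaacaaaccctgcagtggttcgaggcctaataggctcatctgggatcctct
Il1a, chr2:129309923-129310222, minus strand: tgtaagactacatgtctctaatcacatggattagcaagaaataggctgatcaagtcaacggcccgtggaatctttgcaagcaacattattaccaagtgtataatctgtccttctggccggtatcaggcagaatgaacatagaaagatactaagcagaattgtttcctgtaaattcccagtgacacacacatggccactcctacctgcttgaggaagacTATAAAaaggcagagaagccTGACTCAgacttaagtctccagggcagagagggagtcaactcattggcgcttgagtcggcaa
Il1r2, chr1:40085843-40086142, plus strand: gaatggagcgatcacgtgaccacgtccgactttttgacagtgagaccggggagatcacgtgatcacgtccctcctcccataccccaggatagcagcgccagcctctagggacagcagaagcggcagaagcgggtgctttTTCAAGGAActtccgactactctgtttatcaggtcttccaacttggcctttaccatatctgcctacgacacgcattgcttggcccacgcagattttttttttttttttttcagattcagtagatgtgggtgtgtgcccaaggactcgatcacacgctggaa
Il1rn (the third listed start), chr2:24345121-24345420, plus strand: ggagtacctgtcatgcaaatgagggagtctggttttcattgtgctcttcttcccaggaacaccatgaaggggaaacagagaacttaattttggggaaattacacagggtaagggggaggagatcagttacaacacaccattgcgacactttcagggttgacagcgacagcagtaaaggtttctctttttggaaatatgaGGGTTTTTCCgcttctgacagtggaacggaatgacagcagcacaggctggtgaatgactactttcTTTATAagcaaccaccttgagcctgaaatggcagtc
Il18, chr9:50554450-50554749, plus strand: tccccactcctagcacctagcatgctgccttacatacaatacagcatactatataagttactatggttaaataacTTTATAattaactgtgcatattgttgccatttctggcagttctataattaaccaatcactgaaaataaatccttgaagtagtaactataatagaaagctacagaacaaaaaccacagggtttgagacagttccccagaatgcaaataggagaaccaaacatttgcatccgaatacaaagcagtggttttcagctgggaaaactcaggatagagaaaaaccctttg
Il18bp, chr7:102018183-102018482, minus strand: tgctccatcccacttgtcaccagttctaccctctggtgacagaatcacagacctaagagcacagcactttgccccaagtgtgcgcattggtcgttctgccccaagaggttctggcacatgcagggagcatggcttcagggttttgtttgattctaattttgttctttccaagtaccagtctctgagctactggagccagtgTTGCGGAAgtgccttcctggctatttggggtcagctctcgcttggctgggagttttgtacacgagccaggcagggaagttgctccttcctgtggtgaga

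Il1b and Il1a each held the TATA letters TATAAA, first base at -31 and -32 from the start, which 13.6% of 32851 promoter windows hold on either strand. Il1a also held an AP-1 match (TGANTCA, in 7.81% of windows) at -12. The third Il1rn start held an NF-κB match (GGG, any 2 bases, TT, any base, CC, in 4.79%) at -51, and its TATA letters on the other strand at 15. The first Il1rn start held an AP-1 match at -141. Il1r2 held a GAS match (TTCNNNGAA, in 8.3%) at -111 and Il18bp a C/EBP match (TTGCNNAA, in 10.8%) at -49. The capitals in Il18 are TATA letters on the other strand at -175. The ISRE letters (GAAA, any 2 bases, GAAA, in 3.44%) and the PU.1 letters GAGGAAGT (3.2%) were in none of these 6 windows. No matches overlapped, and a match describes letters in a window and is not a binding site.

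Il1b, the main inflammatory ligand, was high in 2 of the 9 groups. In CC at 9 weeks its log2 values were 9.22, 8.67 and 6.75, and in SPF at 12 weeks 9.88, 6.08 and 10.32. In WT the 9 arrays lay between 4.27 and 5.07, and neither of these high groups overlapped the WT of its age. CC at 9 weeks exceeded WT by 3.45 ± 0.72 (log2 difference ± SE, limma adjusted p = 0.0020), a 10.9-fold higher mean. SPF at 12 weeks exceeded WT by 3.85 ± 0.72 (adjusted p = 0.00043), 14.4-fold. The same gene was at 5.11, 5.03 and 5.05 in CC at 7 weeks and back at 5.08, 5.11 and 4.79 in CC at 12 weeks. In SPF it read 4.50, 4.41 and 4.97 at 7 weeks and 4.998, 5.41 and 7.09 at 9 weeks. The 9-week SPF values overlapped WT, and the difference from WT, 1.07 ± 0.72, missed the threshold (adjusted p = 0.36). When the 6 arrays of SPF and WT at 12 weeks were fitted alone, the 12-week call was lost (adjusted p = 0.058).

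**Figure D1:**
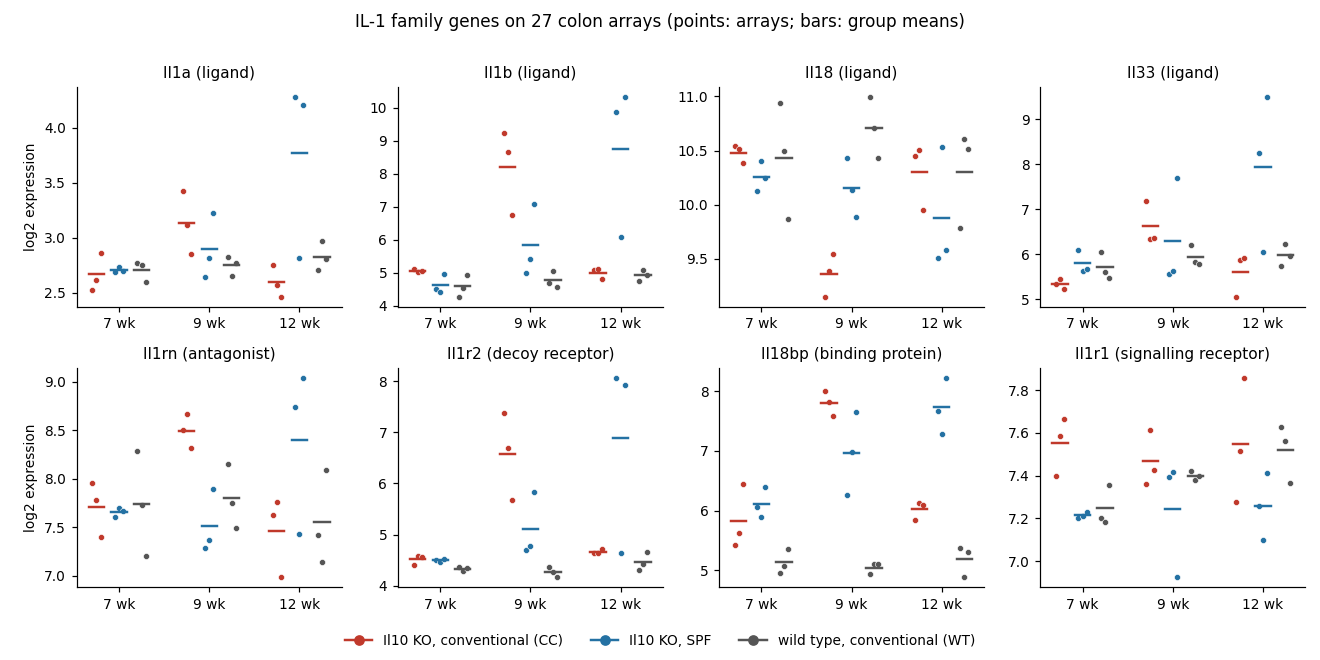
Log2 expression of the 8 genes on all 27 arrays by age; points are arrays, bars are group means (n = 3), and each panel has its own scale. Il1b lies above 5.07, the highest WT array, on all 3 arrays of CC at 9 weeks and of SPF at 12 weeks, and every knockout array of Il18bp lies above every WT array.

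Il1a, the IL-1 ligand that is active without caspase-1, stayed near the low end of the table's values. It read between 2.60 and 2.97 in the 9 WT arrays. SPF at 12 weeks gave 4.28, 2.82 and 4.20, of which replicate 2 lay within the WT range. The group mean was higher than WT by 0.94 ± 0.24 (adjusted p = 0.0047). Without SPF 12 weeks replicate 2 the difference was 1.41, and with only the arrays compared the adjusted p was 0.14. CC at 9 weeks read 3.43, 3.11 and 2.85, above all 3 WT arrays of that age, but the difference of 0.38 ± 0.24 was not called (adjusted p = 0.28). The table holds no detection calls, so how far values near 3 are signal is not known.

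Il33, an alarmin released by damaged epithelial and stromal cells, was highest in SPF at 12 weeks, at 8.26, 6.05 and 9.49. The WT arrays lay between 5.48 and 6.23, so SPF replicate 2 was within their range. The mean exceeded WT by 1.96 ± 0.57 (adjusted p = 0.0099), 3.89-fold. The call was lost without SPF 12 weeks replicate 3 (1.18, adjusted p = 0.10) and with only the arrays compared (adjusted p = 0.14). In CC at 9 weeks the values 7.18, 6.33 and 6.37 were all above the WT of that age, yet the difference of 0.69 ± 0.57 was not called (adjusted p = 0.42). At 9 weeks SPF replicate 3 read 7.71 against 5.55 and 5.62 for its group mates. In CC at 7 weeks the 3 values, 5.33, 5.46 and 5.24, were all below the lowest WT array.

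Il18 moved the other way. In CC at 9 weeks it read 9.15, 9.39 and 9.55, all lower than any of the 9 WT arrays, which lay between 9.79 and 10.99. It was lower than in WT of that age by 1.35 on the mean (log2 difference -1.35 ± 0.27, adjusted p = 0.0013), 2.54-fold. This call held in 10 of 10 alternatives and with each of the 6 arrays left out in turn. The other knockout groups were not called against WT. In SPF at 12 weeks replicates 1 and 3 read 9.51 and 9.58, below every WT array, while replicate 2 read 10.53 (difference -0.43 ± 0.27, adjusted p = 0.24). In CC at 12 weeks the mean was 10.30 ± 0.30 (SD, n = 3), beside 10.30 ± 0.45 in WT, a difference with a 95% interval from -0.55 to 0.55. The epithelial marker list (9 genes) averaged 11.75 to 12.00 in CC at 9 weeks and 11.96 to 12.07 in WT of that age, with 2 genes called lower and 1 higher. In SPF at 12 weeks it averaged 11.45, 11.86 and 11.03, lowest on replicates 1 and 3, where Il18 was also lowest, against 11.88 to 12.05 in WT, with 4 of 9 genes called lower. Of all genes, 24.0% were called in CC at 9 weeks (9.86% lower) and 34.8% in SPF at 12 weeks (18.2% higher). The part of the epithelium in the Il18 values was not tested.

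Il18bp, the soluble trap for IL-18, was the only member whose value was higher on every knockout array than on any WT array. The 18 knockout arrays lay between 5.41 and 8.23 and the 9 WT arrays between 4.88 and 5.37. Such a complete separation upward was seen for 43 of 18193 genes (0.236%) and downward for 13 (0.0715%). At 7 weeks CC read 5.41, 5.62 and 6.44, SPF 6.06, 5.88 and 6.39, and WT 4.96, 5.08 and 5.35. These early differences, 0.69 ± 0.28 for CC and 0.98 ± 0.28 for SPF, did not pass over all genes (adjusted p = 0.36 and 0.37). At 9 weeks CC read 8.01, 7.82 and 7.59 and SPF 6.27, 6.98 and 7.66, with WT between 4.93 and 5.10. Both exceeded WT of that age, CC by 2.76 ± 0.28 (adjusted p = 2.0e-06) and SPF by 1.93 ± 0.28 (adjusted p = 0.00034), 6.79-fold and 3.80-fold. At 12 weeks SPF read 7.68, 7.29 and 8.23 and exceeded WT by 2.55 ± 0.28 (adjusted p = 4.1e-06), while CC read 5.85, 6.13 and 6.09 and its difference of 0.84 ± 0.28 was not called (adjusted p = 0.15). The 9-week calls in CC and SPF and the 12-week call in SPF held in all 10 alternatives and with each array left out.

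**Figure D2:**
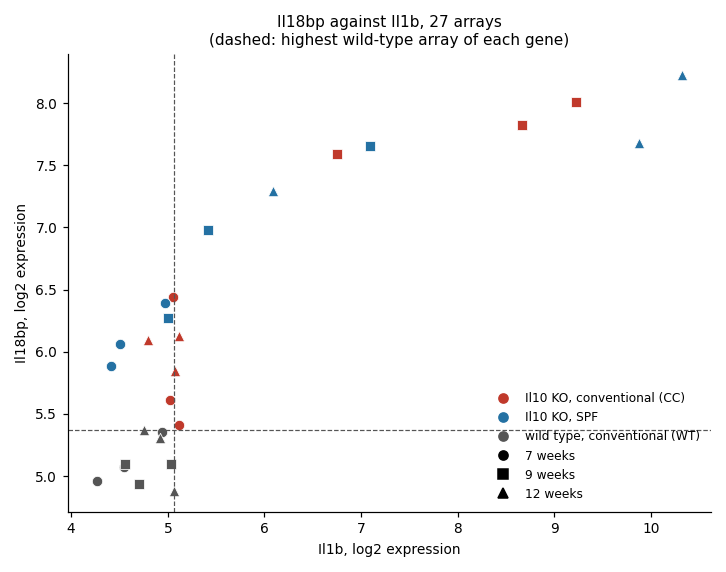
Log2 Il18bp against log2 Il1b on 27 arrays; colour gives the kind of mouse, shape the age, and dashed lines the highest WT array of each gene (5.37 for Il18bp, 5.07 for Il1b). All 18 knockout arrays lie above the Il18bp line, and 11 of 18 lie to the right of the Il1b line.

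Il1r2, the decoy receptor, followed Il1b closely. It read 7.37, 6.69 and 5.68 in CC at 9 weeks and 8.07, 4.64 and 7.93 in SPF at 12 weeks, against 4.17 to 4.66 in WT. CC at 9 weeks exceeded WT of that age by 2.31 ± 0.55 (adjusted p = 0.0045) and SPF at 12 weeks by 2.41 ± 0.55 (adjusted p = 0.0018), 4.97-fold and 5.32-fold. SPF 12 weeks replicate 2 lay within the WT range, and with only the arrays compared the SPF call was lost (adjusted p = 0.11). At 9 weeks SPF read 4.70, 4.78 and 5.84, all above the WT arrays of that age, with a difference of 0.84 ± 0.55 that was not called (adjusted p = 0.34).

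Il1rn, which encodes the receptor antagonist, changed less than its ligand. Its brightest probe set, 1451798_at, read 8.51, 8.67 and 8.31 in CC at 9 weeks, above every WT array, which lay between 7.14 and 8.29. The difference from WT of that age, 0.70 ± 0.33, missed the threshold (adjusted p = 0.13). It was called with only the arrays compared (adjusted p = 0.019) and with array weights (0.81, adjusted p = 0.0050). SPF at 12 weeks read 8.74, 7.43 and 9.04 and exceeded WT by 0.86 ± 0.33, just inside the threshold (adjusted p = 0.0493). That call held in 4 of 10 alternatives and in 2 of 6 runs without 1 array. It was lost without SPF 12 weeks replicate 1 (0.68, adjusted p = 0.19), without SPF replicate 3 (0.54, adjusted p = 0.28), without WT replicate 1 (0.79, adjusted p = 0.12) and without WT replicate 2 (0.65, adjusted p = 0.20). Without SPF replicate 2 the difference was 1.34. The 3 Il1rn probe sets did not read alike. In CC at 9 weeks the second, 1423017_a_at, gave 0.68 ± 0.30 over WT, but the third, 1425663_at, gave 0.05 ± 0.24 and overlapped WT. In SPF at 12 weeks they gave 0.71 ± 0.30 and 0.17 ± 0.24. Which Il1rn transcripts each set reads was not analysed here.

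**Figure D3:**
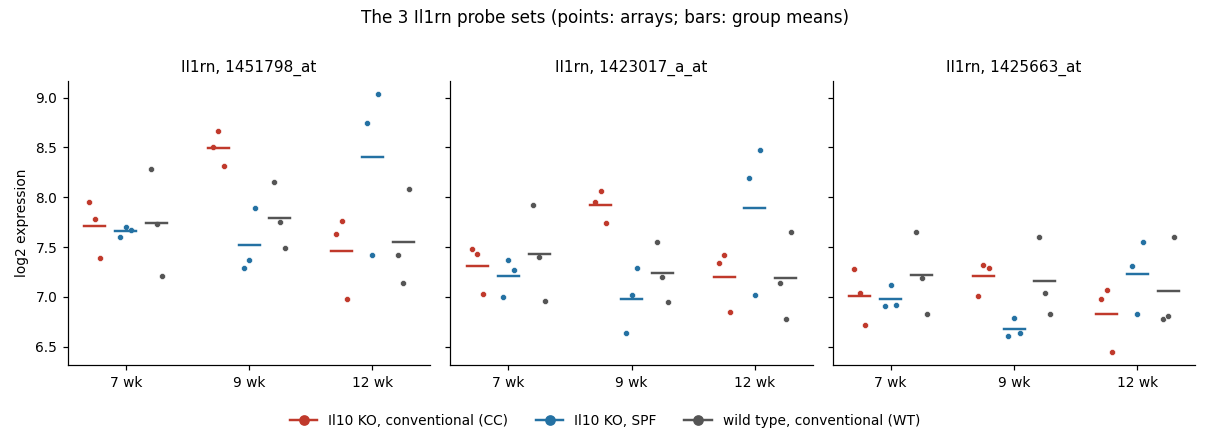
Log2 values of the 3 Il1rn probe sets on 27 arrays by age; points are arrays and bars group means (n = 3). CC at 9 weeks stands above WT in the first and second sets (differences 0.70 and 0.68) but not in the third (0.05).

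Il1r1, the signalling receptor, was called in no comparison of the fit over all 27 arrays. In CC against SPF at 12 weeks its difference was 0.29 ± 0.14 (adjusted p = 0.12). That difference was called with another quantile normalization (0.35, adjusted p = 0.045) and without CC 12 weeks replicate 1 (0.43, adjusted p = 0.036). Over all 27 arrays its main probe set lay between 6.92 and 7.86, a range of 0.93. The largest difference between kinds of mice at 1 age was CC over SPF at 7 weeks, 0.34 ± 0.14 (adjusted p = 0.81). CC exceeded WT at 9 weeks by 0.07, with a 95% interval from -0.21 to 0.35. A second Il1r1 probe set, 1459777_at, read 2.30 to 2.67, near the lowest values of the table.

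The counts follow these patterns. At 9 weeks CC against WT called 3 members higher and 1 lower of 8, where 24.0% of all genes were called, 14.2% higher and 9.86% lower. SPF against WT at that age called 1 (Il18bp; 11.8% of all genes). At 12 weeks SPF against WT called 6 higher (34.8% of all genes called, 18.2% higher), and CC against WT called 0 of 8 (0.451%). In that CC comparison Il18bp alone of the members, and 2854 of all genes, had an unadjusted p under 0.05. At 7 weeks 0 members were called by limma in CC against WT, SPF against WT or CC against SPF (0.506%, 0.055% and 0.269% of all genes). An unadjusted p under 0.05 was reached by 2, 1 and 1 members, beside 1994, 921 and 968 of all 18193 genes. Fitting only the arrays compared left 1 of the 6 SPF calls at 12 weeks, and leaving out SPF 12 weeks replicate 3, the array with raised pancreatic markers, left 4 (Il33 and Il1rn lost). With weights for each array instead, 2 members were called in SPF against WT at 9 weeks. The share of all genes called was not counted in any alternative fit, here or below.

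**Figure D4:**
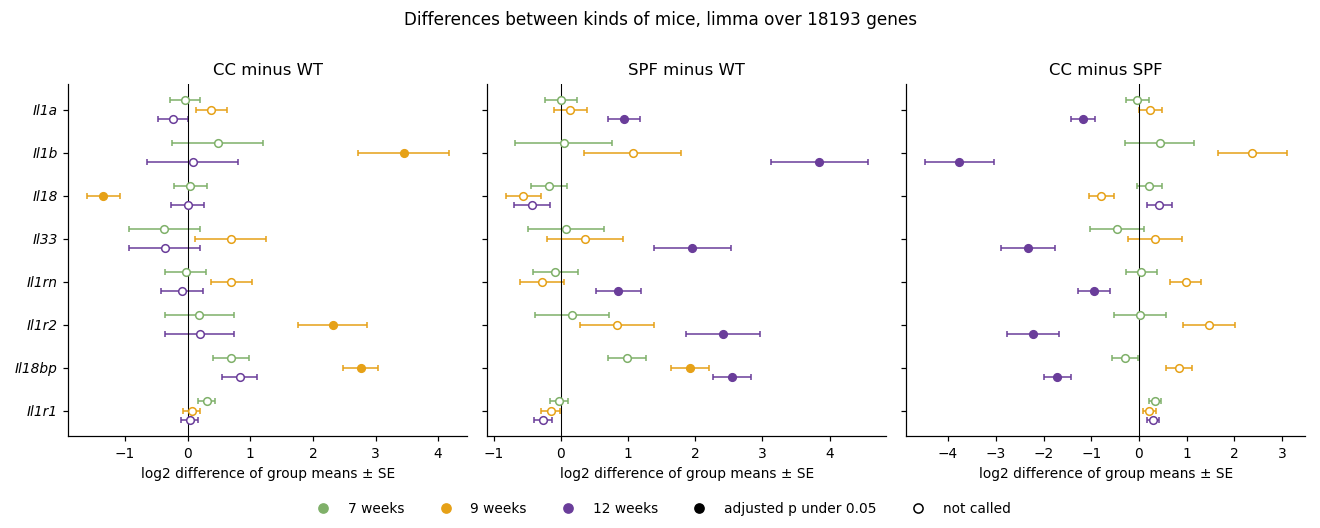
Log2 differences of group means with SE for the 8 genes, at 7, 9 and 12 weeks, for CC minus WT, SPF minus WT and CC minus SPF; filled points have a limma adjusted p under 0.05. The CC calls lie at 9 weeks, with Il1b at 3.45 and Il18 at -1.35, and most SPF calls at 12 weeks, with Il1b at 3.85.

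Next the kinds of knockouts were set against each other. At 9 weeks CC against SPF called 0 of 8 members and 0 of 18193 genes; 5 members and 1468 genes had an unadjusted p under 0.05, and with array weights 5 members were called. Il1b differed there by 2.38 ± 0.72 (adjusted p = 0.28). At 12 weeks 6 members were lower in CC than in SPF (24.6% of all genes called, 13.6% lower). The log2 differences, CC minus SPF, were -3.77 ± 0.72 (adjusted p = 0.0023) for Il1b, -2.33 ± 0.57 (adjusted p = 0.0061) for Il33, -2.22 ± 0.55 (adjusted p = 0.0065) for Il1r2, -1.71 ± 0.28 (adjusted p = 0.0014) for Il18bp, -1.17 ± 0.24 (adjusted p = 0.0030) for Il1a and -0.95 ± 0.33 (adjusted p = 0.041) for Il1rn. All 6 calls were lost when only those 6 arrays were fitted. Without SPF 12 weeks replicate 3 the calls were 3 (Il33 -1.55, Il1r2 -1.70 and Il1rn -0.63 lost), and Il1r2 was also lost without SPF replicate 1 (-1.63). Il1rn was lost too without SPF replicate 1 (-0.78), CC replicate 1 (-1.03) or CC replicate 3 (-0.71). Without SPF replicate 2 the Il1r2 and Il1rn differences were -3.34 and -1.44. CC at 9 weeks against SPF at 12 weeks, the highest groups of each kind, called 0 of 8 (0.011% of all genes). Il1a and Il33, both lower in CC, had an unadjusted p under 0.05, as did 1490 of all genes. Without SPF 12 weeks replicate 2 this comparison called 4 members.

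In CC the members that changed from 7 to 9 weeks changed in the opposite direction from 9 to 12 weeks. From 7 to 9 weeks Il18bp rose by 1.98 ± 0.28 (adjusted p = 0.00054), Il1b by 3.15 ± 0.72 (adjusted p = 0.0097) and Il1r2 by 2.06 ± 0.55 (adjusted p = 0.020), and Il18 changed by -1.12 ± 0.27 (adjusted p = 0.012), 4 of 8 members against 10.4% of all genes. From 9 to 12 weeks the same 4 members moved back, Il18bp by -1.78, Il1b by -3.22, Il1r2 by -1.92 and Il18 by 0.94 (adjusted p = 0.0017, 0.013, 0.037 and 0.036; 7.34% of all genes). These comparisons share the 9-week arrays. The Il18bp changes held without any single array. From 7 to 9 weeks Il1b was lost without CC 9 weeks replicate 1 (2.65), Il18 without CC 7 weeks replicate 1 (-1.08) or 9 weeks replicate 1 (-1.01), and Il1r2 without replicate 1 or 2 of either age (1.67 to 2.10), which left 1 to 3 calls. From 9 to 12 weeks leaving out replicate 1 or 2 of either age left 1 or 2 calls, with Il1b at -2.71 and -2.99 without CC 9 weeks replicates 1 and 2. Il1r2 was lost in 5 of these 6 runs, CC 12 weeks replicate 3 included (-1.95), and Il18 in 4 (0.83 to 0.95).

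In SPF the arrays of 9 and of 12 weeks differed widely among themselves. From 7 to 9 weeks 0 members passed (0.726% of all genes), and without SPF 9 weeks replicate 1 there was 1. Of the members Il18bp alone had an unadjusted p under 0.05 in this step, as did 2769 of all genes. From 9 to 12 weeks 0 members and 0 genes passed, although 6 members and 3431 genes had an unadjusted p under 0.05 and the mean of Il1b was 5.83 at 9 and 8.76 at 12 weeks. Without SPF 9 weeks replicate 3 that step called 5 members, and without SPF 12 weeks replicate 2 it called 6. How many of all genes were called in these fits was not counted, so these counts do not single out the members. In WT, limma called 0 of 8 members from 7 to 9 weeks (0.0055% of all genes) and from 9 to 12 weeks (0.0%), with 0 at an unadjusted p under 0.05 (725 and 2311 of all genes). Among SPF arrays at 9 weeks, replicate 3 was the highest for Il1b, Il1r2, Il33, Il1a, Il1rn and Il18bp and the lowest for Il18. Among SPF arrays at 12 weeks, replicate 2 was the lowest for those 6 genes and the highest for Il18. Neutrophil markers (8 of 10 listed genes measured) moved the same way: their mean level was 3.54, 3.77 and 5.32 on the SPF arrays at 9 weeks and 6.81, 4.59 and 7.61 at 12 weeks.

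The change of the CC minus SPF difference from 9 to 12 weeks was called for 7 of 8 members (18.6% of all genes). It was -6.15 ± 1.02 for Il1b (adjusted p = 0.0010), -3.69 ± 0.78 for Il1r2 and -2.55 ± 0.40 for Il18bp, and 1.22 ± 0.38 for Il18. The Il18 value was lost in 8 of 12 runs without 1 array (replicate 1 or 2 of CC at 9 weeks, SPF at 9 weeks or CC at 12 weeks, and replicate 1 or 3 of SPF at 12 weeks; 1.03 to 1.23). With only the 12 arrays of those 4 groups fitted, 0 members were called. Relative to WT, Il18bp alone was called for a change of its CC difference, from 7 to 9 weeks (2.07 ± 0.40, adjusted p = 0.014, 2.01% of all genes called) and from 9 to 12 weeks (-1.93 ± 0.40, adjusted p = 0.031, 1.82%). In each step 4 members had an unadjusted p under 0.05, beside 3393 and 3931 of all genes. From 7 to 9 weeks Il18 changed by -1.39 ± 0.38 (adjusted p = 0.055), Il1b by 2.97 ± 1.02 (adjusted p = 0.12) and Il1r2 by 2.13 ± 0.78 (adjusted p = 0.14), none called. With only the arrays compared, 5 members were called in the first step and 4 in the second. The first Il18bp call was lost without CC 7 weeks replicate 1 (1.87) or replicate 2 (1.97). The second Il18bp call was lost in 8 of 12 runs without 1 array (CC 9 weeks replicate 1 or 2, CC 12 weeks replicate 1 or 2, any WT array of 9 weeks, or WT 12 weeks replicate 2), with values from -2.08 to -1.83, and without both WT arrays that stood apart (-2.08, adjusted p = 0.077). The change of the SPF minus WT difference from 9 to 12 weeks was called for 0 members and 0 genes, with 3 members and 2416 genes at an unadjusted p under 0.05. With array weights, or without SPF 12 weeks replicate 2, it was called for 5 members.

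To compare each ligand with its antagonist, the log2 difference of the 2 genes was taken within each array and its change from WT was averaged over the 3 ages. Only the change between groups is meaningful, since probe sets of different genes are not on a common scale. Labels were exchanged within age in an exact two-sided permutation test over 8000 arrangements, whose smallest possible p is 0.00025, and 8 such tests were adjusted together. Il18 minus Il18bp was -1.86 relative to WT in CC (exact p = 0.00325, adjusted 0.013) and -2.20 in SPF (exact p = 0.0005, adjusted 0.004). By age the CC change was -0.65, -4.11 and -0.84 at 7, 9 and 12 weeks, apart from WT at 9 weeks alone, and the SPF change -1.16, -2.48 and -2.97, apart from WT at 9 and 12 weeks. In CC at 9 weeks its values were 1.14, 1.57 and 1.96 against 6.06, 5.61 and 5.33 in WT. This test is not separate from the Il18bp result, since Il18bp alone was higher on every knockout array than on any WT array. In SPF Il18bp differed from WT by 0.98, 1.93 and 2.55 at 7, 9 and 12 weeks, and Il18 by -0.17, -0.56 and -0.43. None of these Il18 differences in SPF was called. Il1b minus Il1rn went the opposite way, by 1.14 in CC (exact p = 0.0165, adjusted 0.033) and 1.49 in SPF (exact p = 0.006, adjusted 0.016). The CC change was 2.75 at 9 weeks and overlapped WT at 7 weeks (0.51) and 12 weeks (0.17), so the average rests on 9 weeks. In SPF it was 0.12 at 7 weeks, overlapping WT, and 1.35 and 2.99 at 9 and 12 weeks, apart from WT. In SPF at 12 weeks it read 1.14, -1.34 and 1.28 against -2.67, -2.07 and -3.17 in WT. The CC result was lost in 6 of 18 runs that left out 1 array: WT 9 weeks replicates 1, 2 or 3 (1.07, 1.20 and 1.16), WT 7 weeks replicate 1 (1.00), WT 12 weeks replicate 3 (1.06) and CC 7 weeks replicate 3 (1.09). The SPF result was lost without WT 12 weeks replicate 3 (1.40). Il1b minus Il1r2 gave 0.44 in CC and 0.52 in SPF (exact p = 0.037 and 0.046, adjusted 0.060 and 0.061). Il1a minus Il1rn gave -0.16 and 0.20 (exact p = 0.40 and 0.21).

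**Figure D5:**
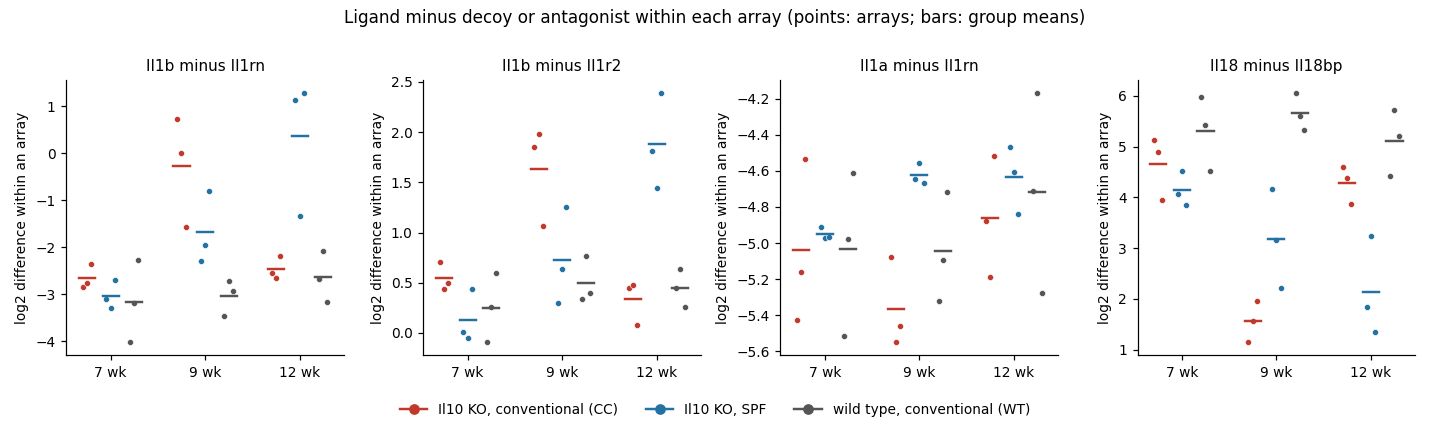
Log2 difference of a ligand and its antagonist, decoy or binding protein within each of 27 arrays, by age; points are arrays and bars group means (n = 3), and the zero of each axis has no meaning across genes. Il18 minus Il18bp falls to 1.14 to 1.96 in CC at 9 weeks, and Il1b minus Il1rn reaches 1.14 and 1.28 on 2 arrays of SPF at 12 weeks.

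Ordered by group mean, Il1b ran from SPF at 12 weeks (8.76 ± 2.33, SD, n = 3) and CC at 9 weeks (8.21 ± 1.30) through SPF at 9 weeks (5.83 ± 1.11) to CC at 7 and 12 weeks (5.06 and 4.99) and the WT groups and SPF at 7 weeks (4.58 to 4.91). Il18bp ran from CC at 9 weeks (7.80 ± 0.21) and SPF at 12 weeks (7.73 ± 0.47) through SPF at 9 weeks (6.97 ± 0.69), SPF at 7 weeks (6.11 ± 0.26), CC at 12 weeks (6.02 ± 0.15) and CC at 7 weeks (5.82 ± 0.54) to WT (5.04 to 5.19). Il1r2 began with SPF at 12 weeks (6.88 ± 1.94), CC at 9 weeks (6.58 ± 0.85) and SPF at 9 weeks (5.11 ± 0.64). Il18 ran in reverse, from WT at 9 weeks (10.71 ± 0.28) down to SPF at 12 weeks (9.88 ± 0.57) and CC at 9 weeks (9.36 ± 0.20). Neighbours in the order overlapped for all 8 genes, except CC at 7 weeks and WT at 12 weeks for Il18bp and CC at 12 and 7 weeks for Il1r2.

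The genes whose levels were most like each member's over the 27 arrays are given as a description; the arrays share their groups, so r mostly reflects the same high and low groups. Il1b was closest to Msr1 (Pearson r = 0.99), Fpr2 (0.99) and Acod1 (0.98), which encode a scavenger receptor, a formyl peptide receptor and the enzyme that makes itaconate. Il1r2 was closest to Il1b (0.98), Clec4e (0.98) and Fpr2 (0.98). Il18bp was closest to Nlrc5, Cxcl9 and Irgm1 (0.98 each), which are interferon-inducible genes. Il1a was closest to Bst1 (0.97), Ifitm6 (0.96) and Il6 (0.95), Il33 to Eif4ebp1 (0.93), Ccl2 (0.92) and Cxcl3 (0.92), and Il1rn to Cfb (0.87), Clec10a (0.87) and Anxa8 (0.87). Il18 was closest to Klb, Sowahc and Thbs4 (0.92 each). Il1r1 had no close likeness, with Pdgfra at 0.76, C130075A20Rik at 0.70 and Arg2 at 0.69.

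Of 70 other genes of the pathway, 66 were measured. The counts that follow stand beside the shares of all genes called against WT in either direction. These were 24.0% in CC at 9 weeks, 11.8% in SPF at 9 weeks, 34.8% in SPF at 12 weeks and 0.451% in CC at 12 weeks. Called higher alone were 14.2% in CC at 9 weeks and 18.2% in SPF at 12 weeks. Among 19 genes that IL-1 is known to induce, 12 rose in CC at 9 weeks against WT (63.2%; median 1.46, beside 0.0002 over all genes), 4 in SPF at 9 weeks (21.1%) and 16 in SPF at 12 weeks (84.2%; median 2.61, beside 0.02), and 0 in CC at 12 weeks. Cxcl5, a neutrophil-drawing chemokine, rose by 5.93 ± 0.87 in CC at 9 weeks (adjusted p = 0.00011) and 6.37 ± 0.87 in SPF at 12 weeks. Mmp10, a matrix metalloproteinase, rose by 3.75 and 4.41, and Nos2, the inducible nitric oxide synthase, by 2.73 and 3.01. Saa3, an acute phase protein, rose by 3.55 ± 0.58 in CC at 9 weeks. At 12 weeks 15 of the 19 were lower in CC than in SPF (78.9%), where 24.6% of all genes were called, 13.6% lower.

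Of 12 measured signalling genes, 6 rose in CC at 9 weeks, 2 in SPF at 9 weeks (16.7%) and 4 in SPF at 12 weeks (33.3%, near the share of all genes). Myd88, the adaptor of the IL-1 and IL-18 receptors, rose by 0.82 ± 0.16 (adjusted p = 0.0011) and 1.02 ± 0.16 (adjusted p = 0.00010) in CC at 9 and SPF at 12 weeks, and its partner kinase Irak1 by 0.59 ± 0.11 and 1.00 ± 0.11. Irak1 was also the only listed gene raised in CC at 12 weeks (0.57 ± 0.11, adjusted p = 0.029). Of 12 genes that process or release the cytokines, 4 rose in CC at 9 weeks (33.3%) and 5 in SPF at 12 weeks (41.7%). These stand beside the same 14.2% and 18.2% of all genes called higher. Lists of 12 genes make such shares coarse, and their distance from those of all genes was not tested. Mefv, the pyrin inflammasome sensor, rose by 1.51 and 1.67, Casp4, an inflammatory caspase, by 0.69 and 0.65, and the pore-forming Gsdmd by 0.46 and 0.81. Pycard, the inflammasome adaptor, rose by 0.60 in CC at 9 weeks and by 0.41 in SPF at 9 weeks (adjusted p = 0.041).

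Of 12 other ligands and receptors of the family, 1 rose in CC at 9 weeks (8.33%, against 24.0% of all genes) and 4 rose and 1 fell in SPF at 12 weeks (41.7%, against 34.8%), so neither share stood clearly above that of all genes. The risen gene in CC was Il18r1, a subunit of the IL-18 receptor (0.77 ± 0.26, adjusted p = 0.032), which rose by 0.88 in SPF at 12 weeks beside its partner Il18rap (0.98 ± 0.24, adjusted p = 0.0027). Il1f9, which encodes IL-36γ, rose there by 1.77 ± 0.46 (adjusted p = 0.0046), and Il1rap, the shared co-receptor, changed by -0.61 ± 0.16 (adjusted p = 0.0047). Of 5 genes of the IL-18 and IL-12 axis, 1 rose in CC at 9 weeks and 2 in SPF at 12 weeks. Of all genes, 14.2% and 18.2% were called higher there, and 5 genes are too few to set against these shares. Ifng, the cytokine that IL-18 elicits from T and NK cells, rose by 2.14 ± 0.69 (adjusted p = 0.026) and 3.20 ± 0.69 (adjusted p = 0.0011) in these groups, and the T helper 1 factor Tbx21 by 0.40 ± 0.15 in the latter. Among 6 measured genes of IL-33 responders, of which 1 and 2 were called in these groups (16.7% and 33.3%), Gata3 rose by 0.94 and 0.73 in the same groups and Rora changed by -0.59 in SPF at 12 weeks.

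Markers of some other cell types moved with the members. Of all genes, 24.0% were called in CC at 9 weeks (14.2% higher, 9.86% lower) and 34.8% in SPF at 12 weeks (18.2% higher). Counts near these shares do not set a list apart. The macrophage and monocyte list (9 of 10 measured) averaged 7.09 to 7.70 on WT arrays, 8.38 to 8.94 in CC at 9 weeks and 8.24 to 9.31 in SPF at 12 weeks, with 8 of 9 genes called higher in each. The neutrophil list averaged 3.51 to 3.72 on WT arrays, 5.23 to 6.08 in CC at 9 weeks and 4.59 to 7.61 in SPF at 12 weeks, with 3 and 6 of 8 called. Of its defining markers, Csf3r read 3.15 to 5.79 and Cxcr2 3.04 to 4.01 over all arrays, and Ly6g was not analysed here. In T cells 4 and 5 of 5 markers were called higher. Of the remaining lists, only smooth muscle had most of its genes called in these 2 groups. In CC at 9 weeks 0 B cell, fibroblast or endothelium markers were called, and 1 of 4 regulatory T cell and 3 of 9 mast cell markers were called higher. In SPF at 12 weeks 0 of 4 B cell and 1 of 4 regulatory T cell markers were called higher. Fibroblast markers there had 1 called higher and 2 lower of 6, endothelium 2 lower of 5, and mast cell 1 higher and 1 lower of 9. The smooth muscle list averaged 12.07 to 12.33 on WT arrays, 11.56 to 11.72 in CC at 9 weeks and 10.47 to 11.69 in SPF at 12 weeks. Of its 5 genes, 4 were called lower in CC at 9 weeks and 5 in SPF at 12 weeks. At 7 weeks and in CC at 12 weeks, where Il18bp was above WT, the neutrophil list averaged 3.49 to 3.74, while the macrophage and monocyte list averaged 7.78 to 7.83 in CC at 7 weeks and 7.71 to 7.94 in CC at 12 weeks, above every WT array, and 7.08 to 7.78 in SPF at 7 weeks. The part of these cell types in the results was not tested.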

How the data were processed

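RNA of full-thickness mouse colon was labelled with biotin and hybridized, 1 array per sample, on 27 arrays in 9 groups of 3. The array named in the design text is for rat, while the deposited probe sets belong to a mouse array. The authors deposited log2 expression, 1 value per probe set and array, normalized with affyPLM per the series' design text; how background and probe summaries were handled, and the package version, are not given here. Arrays have no count depth, and their number limits the precision. CC was read as conventional housing of IL10-/- mice because the design text lists that group and the other titles name SPF and WT. Replicate numbers did not pair the samples: 4 of 27 same-number pairs deviated together at r over 0.1 (range -0.438 to 0.264).

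Of 45101 probe sets, 64 controls were left out, and 34945 with 1 gene symbol in GEO's platform annotation, updated through RefSeq gene IDs, gave 18193 genes. Each gene was read by its brightest probe set over all arrays (9010 genes had several); 932 probe sets with several symbols and 9160 unnamed ones were left out. With limma 3.58.1 in R 4.3.3 the 9 group means were estimated for each gene from 27 arrays (two-sided eBayes tests), and a gene was called where its p, adjusted by Benjamini-Hochberg over all genes, was under 0.05. The fit was tested on simulated data. Genes of the pathway lists were named when called, at most 4 per list with the smallest adjusted p, and likeness is the 3 highest Pearson r. The members and lists were chosen with earlier results of these data known. Alternatives were a replicate block, another quantile normalization, averaged probe sets, all probe sets, a filter on low genes, array weights, only the arrays compared, and arrays left out.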

Additional observations from a re-analysis of the deposited data

Results flagged for a closer look

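These 9 differences in change were picked out because the test of the difference itself passed in limma's fit over all genes, at an adjusted p under 0.05. From 7 to 9 weeks the Il18bp difference between CC and WT changed by 2.07 (log2). From 9 to 12 weeks the same difference changed by -1.93. The other 7 concern the difference between CC and SPF from 9 to 12 weeks. It changed by -6.15 for Il1b, -3.69 for Il1r2, -2.66 for Il33, -2.55 for Il18bp, -1.92 for Il1rn, -1.41 for Il1a and 1.22 for Il18. The Il33 value lost its call without CC 9 weeks replicate 1 (-2.38), SPF 9 weeks replicate 1 or 2 (-2.29 and -2.32), CC 12 weeks replicate 1 (-2.38) or SPF 12 weeks replicate 1 or 3 (-2.49 and -1.88). Groups of 3 arrays were not tested for outlying arrays.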

How the results depend on the processing

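Of 34 called differences of single members, none changed sign in an alternative, and of 126 not called, 37 did (largest 0.55) and 42 were called in some alternative. Array weights raised the calls to 1 in SPF against WT at 7 weeks, 2 at 9 weeks, 5 in CC against SPF at 9 weeks, 7 in CC from 7 to 9 weeks, 1 and 7 in SPF from 7 to 9 and from 9 to 12 weeks, and 2 between CC at 9 and SPF at 12 weeks. They gave 4, 5 and 5 for the changes of CC minus WT (7 to 9 and 9 to 12 weeks) and SPF minus WT. Fitting only the arrays compared left 1 in SPF against WT at 12 weeks, 0 in CC against SPF at 12 weeks and 0 for the change of CC minus SPF, and gave 5 and 4 for those of CC minus WT. The changes of CC minus WT numbered 2 and 2 without the 40% of genes with the lowest mean, which drops Il1a and Il1r2, 2 and 0 without both wild-type arrays that stood apart, and the second 0 with the replicate number as a block within age (Il18bp -1.93, adjusted p = 0.0550); the block left SPF against WT at 12 weeks at 5, without Il1rn. Leaving out 1 array gave 3 to 7 calls in CC against SPF at 12 weeks, 1 to 4 in each CC step, 0 to 1 and 0 to 6 in the SPF steps, 0 to 4 between CC at 9 and SPF at 12 weeks, 0 to 3 and 0 to 4 for the changes of CC minus WT and 0 to 5 for that of SPF minus WT. For the paired genes, averaging probe sets put Il1b minus Il1r2 in CC (0.44, adjusted p = 0.0497) and Il1a minus Il1rn in SPF (0.34, adjusted p = 0.0492) past the threshold. Leaving out both wild-type arrays lost Il1b minus Il1rn in SPF (1.44, adjusted p = 0.067). Without 1 array Il1b minus Il1rn lay between 0.98 and 1.36 in CC and 1.34 and 1.77 in SPF, and Il1b minus Il1r2 between 0.38 and 0.53 and between 0.43 and 0.59. The causes were not tested. Group SDs of Il1b ran from 0.046 to 2.33, although the fit uses 1 spread per gene, and 3 arrays a group limit all values.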
